A study of Mus musculus with 5 samples.

Results

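Of 36447 distinct windows around transcription start sites (TSSs) in mouse pre-B leukaemia cells, 10966 had a mean combined signal M, defined below, of at least 1. Of these 10966, 1408 carried more nucleosome signal in an outer part, 700 to 1000 bp from the annotated TSS, than beside or at the TSS itself. Windows were chosen on a combined signal M, the average of the wild-type mean and the PHF6 knockout mean after each library had been divided by its own mean. A value of 1 is therefore the mean over all windows and bins of that library and is called relative signal here. A member had a mean M of at least 1 over the window, and its stronger outer part, called the far part, exceeded both the mean of the flanks (50 to 200 bp on either side of the TSS) and the trough (within 50 bp of it). Members were 12.8% of the 10966 windows with M of at least 1, and the 9558 others are called the other windows. All of these levels chose the members, so far, flank and trough levels averaged over the libraries are descriptions with no test.

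The 5 ATAC-seq libraries came from C57BL/6J cells that in both groups overexpressed BCR-ABL1, an active tyrosine kinase fusion, and were null for p19, a tumour suppressor of the Cdkn2a locus. Wild-type replicates 1 and 3 had intact PHF6, and knockout replicates 1, 2 and 3 were also PHF6 null. Replicates are termed biological in the design text; the sources used here do not state if they came from different clones, cultures or animals, and p-values therefore cover only the spread among the 5 libraries. Per the labels, 500000 nuclei were transposed per library. The rows of the deposited matrices carry no gene name, coordinate or strand, so windows are cited by row number, no marker of pre-B cells was looked up, and Phf6 itself could not be checked.

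ATAC-seq places sequencing adapters in open DNA with the Tn5 transposase, and fragments that span a nucleosome report where it sits. At an active TSS, a depleted stretch bound by the transcription machinery is typically flanked by positioned nucleosomes, with an array that fades with distance. Many mammalian genes have several annotated start sites, not all used in a given cell type, and starts of neighbouring genes can lie close together. PHF6, a chromatin-associated zinc finger protein of the nucleus and nucleolus, is recurrently mutated in leukaemia.

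The far part of the members held 2.81 M at the median (quartiles 1.99 and 4.15, highest 20.1). The median flank level was 1.32 (quartiles 0.919 and 1.99) and the median trough level 0.878 (0.464 and 1.44). The opposite outer part was the lowest of these, at 0.762 (0.488 and 1.09). The far part is by definition the stronger outer part, so a lower opposite part is made by the choice of side. Both outer parts exceeded flanks and trough in 225 members (16%). The far part exceeded the larger of flanks and trough 1.65-fold at the median (quartiles 1.23 and 2.56). It held at least 2 times the level of the core, the 200 bp on either side of the TSS, in 704 members, and at least 10 times that level in 36.

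Signal at the annotated TSS was reduced but seldom absent. Core M was at least 1 in 930 members (66.1%), against 9495 other windows (99.3%), and was below 0.1 in 2 members. The trough fell below 0.5 of the flank level in 532 members (37.8%), against 6108 other windows (63.9%). It exceeded the flanks in 422 members (29.97%), against 1831 others (19.2%). An inverted centre, with more signal at the TSS than beside it, was therefore present in both sets. These shares rest on levels the rule used.

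The far part lay on the right in 711 members (50.5%) and on the left in the rest. All rows appear to follow a fixed orientation rather than the direction of transcription: 320 pairs of windows shared runs of at least 8 identical bins when read in the same column order. A reversed reading gave 0 pairs, for which a count of 0 of 320 allows up to 0.938% (3 counts; counting error only). Upstream therefore cannot be told from downstream, and windows were turned so that the far part was on the right.

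Near the thresholds the choice rested on small differences. Rows 22637, 9252 and 9613 entered with window M of 1.001, 1.001 and 1.002, and rows 36655, 12257 and 14654 stayed out, each at 0.999. Rows 6720, 8183 and 6557 entered with far parts of 1.68, 2.23 and 2.54 against flanks of 1.68, 2.23 and 2.53. Rows 1954, 20794 and 2106 stayed out with stronger outer parts of 2.13, 1.41 and 0.948 against flanks of 2.13, 1.41 and 0.949.

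**Figure D1:**
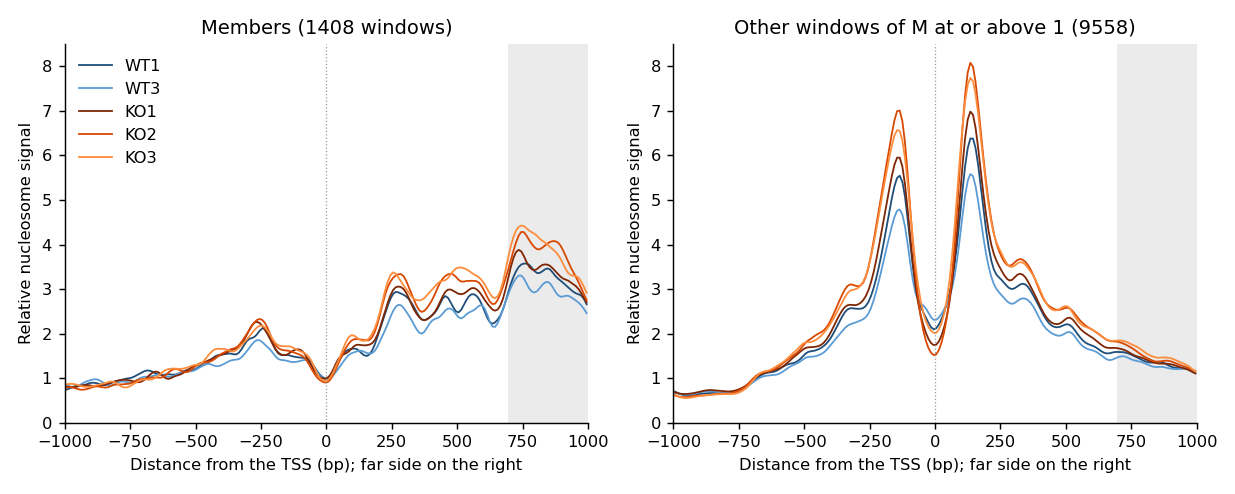
Mean relative nucleosome signal per 10 bp bin against distance from the TSS in bp, with each window turned so that its stronger outer part (grey, 700 to 1000 bp) is on the right, 1 line per library (WT wild type, KO knockout), for the 1408 members (left) and the 9558 other windows of M at or above 1 (right). The other windows peak within 200 bp of the TSS in every library, while the members dip at the TSS and reach their highest level between 735 and 765 bp on the far side.

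The averaged profile of the members kept a dip at the TSS. At 5 bp from the TSS it was 0.984 and 0.972 in wild-type replicates 1 and 3, and 0.99, 0.903 and 0.937 in the knockout (replicates 1, 2 and 3). On the far side, the maximum lay at 765 and 745 bp in the wild-type libraries and at 735, 745 and 745 bp in the knockout libraries. In between, a lower maximum stood at 255 to 285 bp on the far side, with levels of 2.65 to 3.38, and another at 245 to 265 bp on the opposite side, with 1.86 to 2.33. On the far side, the other windows had maxima of 5.58 to 8.08 within 200 bp of the TSS. The rule requires low flanks at 50 to 200 bp, so the lack of such peaks in members is in part made by the choice of windows.

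The strongest signal on the far side was not at a common distance, and it often lay outside the far part. On the far side of the TSS, the strongest bin of M lay at a median of 695 bp (quartiles 435 and 835). It was beyond 700 bp in 696 members (49.4%), within 200 bp of the TSS in 61 (4.33%) and in the outermost bin in 35 (2.49%). The strongest bin of the whole window was beyond 700 bp in 616 members (43.8%), against 130 other windows (1.36%), and was on the opposite side of the TSS in 213 members (15.1%). A high mean over 300 bp thus often came with a stronger, narrower maximum nearer the TSS.

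Single libraries placed that maximum differently. Its median distance was 655 and 655 bp in wild-type replicates 1 and 3, and 645, 640 and 645 bp in the knockout (replicates 1, 2 and 3), a difference of -11.7 bp (exact permutation p = 0.1) that was 0.191 bp between means over members. The strongest bin on the far side lay within 20 bp of that in the other library for the wild-type pair in 30.1% of members. Between knockout libraries the share was 30.5 to 36.4%, and across the genotypes 25.1 to 31.5%. In any 1 library the stronger outer part of that library, on either side, exceeded flanks and trough in 70.7 to 73.7% of members. The rule applied to 1 library alone chose 1911 to 2920 windows.

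Reading windows in the genotype that had not chosen them separated the pattern from the choice. The rule applied to the wild-type mean alone chose 1892 windows, and applied to the knockout mean alone 1588; 775 were in both, which is 40.96% of the first list and 48.8% of the second. The 1892 windows had far levels of 2.40, 2.65 and 2.59 in knockout replicates 1, 2 and 3, and core levels of 1.59, 1.63 and 1.79. The 1588 windows had far levels of 2.75 and 2.50 in wild-type replicates 1 and 3, and core levels of 1.80 and 1.71. The far part stayed above the core in each held-out library, by 1.44- to 1.63-fold.

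The share of windows with an outer part above flanks and trough in the held-out genotype was well above the background. An outer part on either side counted here, so it need not be the far part that was chosen. Of windows chosen in the wild type, 57.3%, 57.1% and 53.9% had such an outer part in knockout replicates 1, 2 and 3. The same was true of 20.3%, 20.04% and 21.6% of all 11587 windows with a wild-type mean of at least 1. Of windows chosen in the knockout, 56.7% and 55.8% had such an outer part in wild-type replicates 1 and 3, against 17.8% and 18.4% of 10893. No test was made over windows, since overlapping windows repeat the same signal.

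Many far parts were also part of the window of another annotated TSS. The 300 bp far part of each member was searched for in every other window, at shifts of up to 1700 bp towards the far side. A match needed a correlation of at least 0.98 over bins and libraries and a level within 1.25-fold. A match was found for 500 of 1408 members (35.5%, exact 95% interval 33.01 to 38.1%), against 2109 of 9558 other windows searched with their own stronger outer part (22.1%, 21.2 to 22.9%). With columns reversed, a search that should find nothing in a fixed orientation, 3 members and 64 other windows had a match. These intervals cover counting error only, and windows that overlap are not independent.

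A strong outer part is easier to match than a weak one, so the sets were also compared at outer parts of at least 2 M. There 417 of 1045 members (39.9%) and 472 of 1533 other windows (30.8%) had a match. Strictly identical runs, which arise only where 2 TSSs lie a whole number of bins apart, were rarer. They involved 75 members (5.33%) and 382 other windows (4.00%). TSSs absent from the deposited list could not be found this way, so the 908 members without a match (64.5%) are not shown to lie far from every start site.

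**Figure D2:**
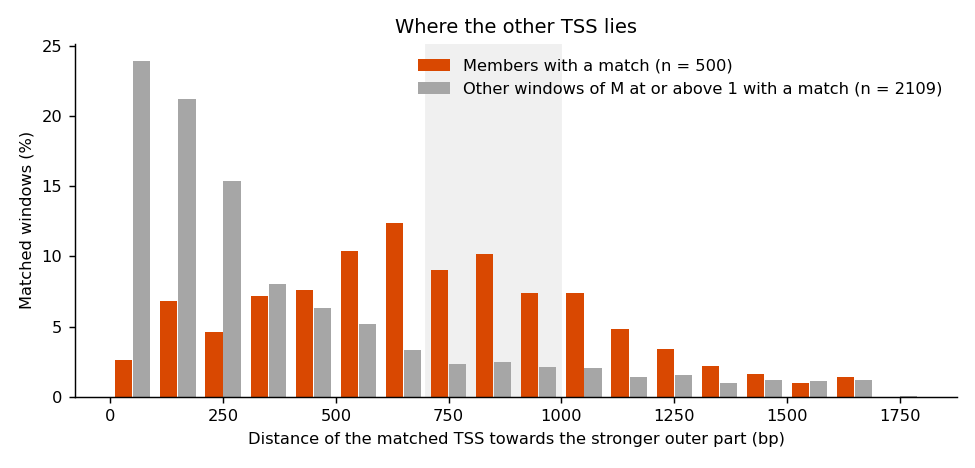
Share of matched windows (%) by distance in bp from a window's own TSS to the matched TSS, for the 500 matched members and the 2109 matched other windows; the grey band marks 700 to 1000 bp. The matched TSS lay at a median of 680 bp for members and 230 bp for the other windows.

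The matched TSS of a member lay farther off than that of another window. Its distance was 680 bp at the median (quartiles 450 and 950) for members and 230 bp (100 and 500) for the others. Of the matched members, 250 had it 500 to 1000 bp away and 70 within 300 bp; of the matched other windows, 330 had it at 500 to 1000 bp and 1277 within 300 bp. In 202 matched members (40.4%) the strongest bin within the far part lay within 200 bp of the other TSS. The same held for 228 of the others (10.8%), read in their stronger outer part. The rule asks for strong outer signal in members, so this difference between the sets is in part made by the choice. In 21 matched members the strongest bin of the far part lay within 50 bp of that TSS, where an active start site would have its depleted stretch.

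Most windows that shared the far part had more signal in their flanks than in their own trough and outer parts. Of the 500, 498 had M of at least 1, and in 334 (66.8%) the flanks exceeded trough and outer parts, a share near that of the windows matched to other windows (1382 of 2109, 65.5%). A further 83 of the 500 (16.6%) were members themselves. Core M was higher at the other TSS than at the member's own TSS in 429 of 500 (85.8%), against 893 of 2109 (42.3%) in the other set, with medians of 3.23 and 1.30 for members. The rule holds down a member's own core, so this direction is in part set by the choice. Over the 493 distinct windows matched to members, flanks exceeded the trough 1.92- and 1.74-fold in wild-type replicates 1 and 3. In knockout replicates 1, 2 and 3 the ratio was 2.08, 2.65 and 2.02. The members' own ratio was 1.39 and 1.36 in the wild type, and 1.45, 1.63 and 1.62 in the knockout.

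Some members repeated one another. In 66 pairs, which involved 8.95% of members, the far part of a member was found in the window of another member, so counts of members are not counts of loci. Among the pairs with identical runs, rows 20267 and 20268 lay 240 bp apart and agreed in every overlapping bin of every library; row 20268 was a member, with a far part of 4.12 against flanks of 3.27. Row 5222, a member, and row 6779 lay 400 bp apart and agreed in 160 of 160 bins. Row 30172 and row 30596, a member, lay 310 bp apart and also agreed throughout their overlap. In each of these pairs only the member had its far part above both flanks and trough.

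The pair of rows 4169 and 30628 shows the arrangement at high signal. Their TSSs lay 800 bp apart, and 120 of 120 overlapping bins were identical in every library. Seen from row 30628, a member, the far part held 19.6 M against flanks of 6.86 and a trough of 5.28. Seen from row 4169, which was not a member, the same stretch was the centre of the window, with flanks of 16.7 and a trough of 17.6. Window M was 8.19 and 8.08.

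**Figure D3:**
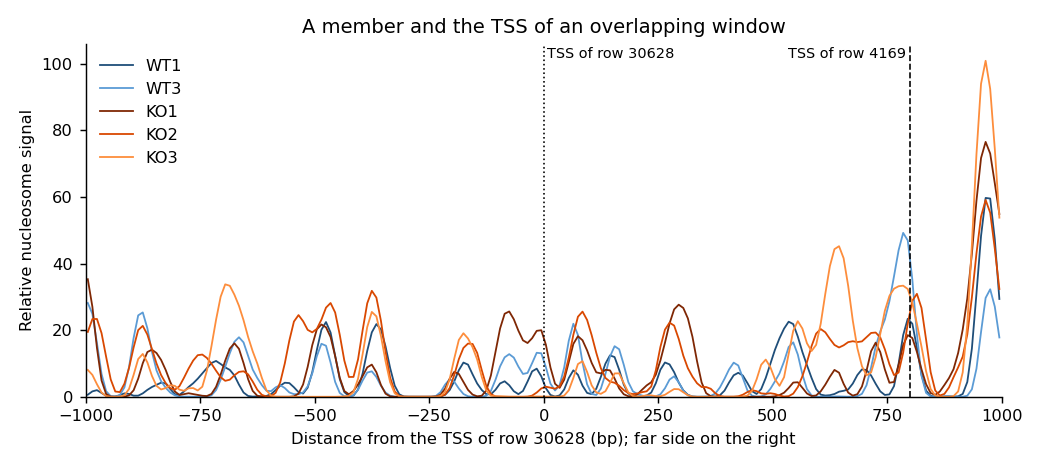
Relative nucleosome signal per bin in each library across the window of row 30628, against distance in bp from its TSS, with the TSS of row 4169 at 800 bp (dashed line). The highest bin lies at 965 bp in 4 libraries, beyond the TSS of row 4169 at 800 bp, and at 785 bp in wild-type replicate 3.

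Members with a match had the higher far part in every library. Far levels were 3.8 and 3.46 in wild-type replicates 1 and 3 with a match, and 2.94 and 2.68 without. In knockout replicates 1, 2 and 3 they were 3.98, 4.45 and 4.43 with a match, and 3.05, 3.42 and 3.51 without. The difference on the log2 scale was 0.37 and 0.37 in the wild type and 0.39, 0.38 and 0.33 in the knockout, so it did not separate the genotypes (exact permutation p = 1).

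Single nucleosome-sized maxima were visible once windows were aligned on the strongest bin of the far side found in the genotype that was not read. That bin could lie inside or outside the far part. At that position the members averaged 11.1 and 9.53 in wild-type replicates 1 and 3, and 11.8, 13 and 12 in the knockout (replicates 1, 2 and 3). Towards the TSS, the next maximum came 180 to 210 bp away, at 2.31 to 2.77. The signal 70 to 110 bp from the maximum was lower than the maximum by 7.53- and 7.13-fold in the wild type and by 8.0-, 8.44- and 6.27-fold in the knockout. The genotypes overlapped in this measure (exact permutation p = 0.8).

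The study's main contrast was PHF6 knockout against wild type, asked here of the far part and of the member's own TSS. With 2 against 3 libraries an exact two-sided permutation test cannot go below p = 0.1, so no profile comparison could pass 0.05. In all, 30 profile comparisons were made, and their p-values were adjusted over these; a further 20 comparisons within groups of like level were adjusted over those 20. The far part averaged 3.24 and 2.96 in wild-type replicates 1 and 3, and 3.38, 3.79 and 3.84 in the knockout (replicates 1, 2 and 3). Knockout libraries lay above the wild-type ones without overlap. The genotype means were 3.10 ± 0.202 (SD, n = 2) and 3.67 ± 0.251 (SD, n = 3), a difference of 0.570 (1.18-fold; exact permutation p = 0.2, adjusted p = 0.3), and without scaling the deposited values the difference was 0.250 (exact permutation p = 0.8).

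**Figure D4:**
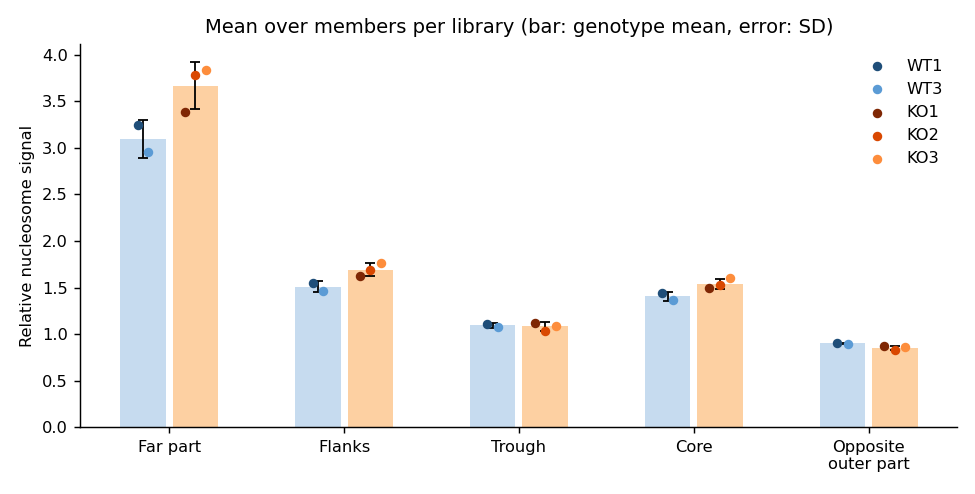
Mean relative nucleosome signal over the 1408 members in 5 parts of the window, per library (points), with genotype means (bars) and SD (error bars; n = 2 wild type, n = 3 knockout). The far part, flanks and core are higher in each knockout library than in each wild-type library, the trough overlaps, and the opposite outer part is lower in the knockout.

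The core at the member's own TSS had a smaller difference. It was 1.44 and 1.37 in the wild type and 1.501, 1.52 and 1.60 in the knockout, a difference of 0.135 (1.10-fold; exact permutation p = 0.1, adjusted p = 0.3), which was -0.00123 without scaling. The opposite outer part was 0.908 and 0.901 in the wild type and 0.876, 0.829 and 0.860 in the knockout (exact permutation p = 0.2, adjusted p = 0.3). The trough overlapped between genotypes, at 1.11 and 1.08 against 1.12, 1.03 and 1.09. The far-to-core ratio was 2.25 and 2.16 in the wild type and 2.25, 2.48 and 2.40 in the knockout, a log2 difference of 0.11 (exact permutation p = 0.2, adjusted p = 0.3). None of these differences could pass 0.05 in the exact permutation test.

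The contrast between flanks and trough differed less between genotypes at members than at the other windows, without passing a test. The other windows had a flank-to-trough ratio of 2.02 and 1.68 in the wild type and 2.53, 3.18 and 2.51 in the knockout, a log2 difference of 0.56. At members the log2 difference was 0.18. The log2 ratio of members minus that of the other windows was -0.54 and -0.30 in the wild type and -0.81, -0.96 and -0.63 in the knockout, and the genotypes did not overlap (difference -0.38; exact permutation p = 0.2, adjusted p = 0.3).

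The sparsity of the libraries moved with genotype in part. Bins at 0 made up 46.97% and 44.5% of all bins in wild-type replicates 1 and 3, and 45.2%, 52.8% and 65.4% in the knockout (replicates 1, 2 and 3). In the members' far parts the shares were 13.6%, 13.6%, 13.6%, 17.02% and 21.9% in the same order. Mean deposited signal was 0.533 to 0.60 in 4 libraries and 0.316 in knockout replicate 3. The part these had in the genotype differences was not tested.

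The genotype ratio of the far part differed between groups of members by level. The members were grouped on far M and the flanks on their own M, both averages of the values compared. A trend with level therefore cannot be told apart from the grouping, which also bears on the permutation test below. In 10 groups of members ordered by far M, the ratio of knockout to wild type was 0.896 in the lowest group, 0.98 in the next and 1.08 to 1.32 in the 8 others. In the lowest group the wild-type libraries had 1.29 and 1.32 and the knockout libraries 1.18, 1.13 and 1.20, without overlap (exact permutation p = 0.1, adjusted p = 0.308). The flanks of other windows, taken at the same levels, had ratios of 1.05 to 1.31, the highest of them in the top group. From the third group upwards, the ratio was above 1 both in the far part and in signal of like strength beside a TSS.

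**Figure D5:**
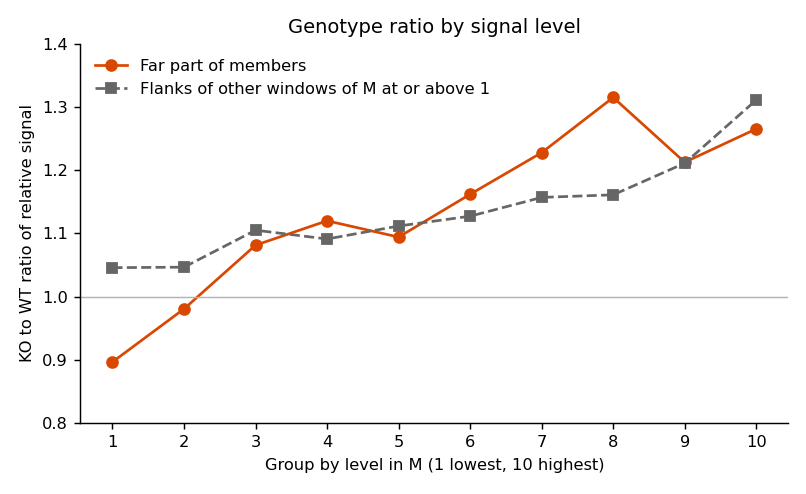
Ratio of knockout to wild-type relative signal in 10 groups by level in M, for the far part of the members (circles) and the flanks of other windows in the same range of M (squares). Both ratios are higher in the upper groups than in the lowest ones, from 0.896 to 1.27 for members and 1.05 to 1.31 for flanks between the lowest and the highest group. The groups were cut on M, the average of the values compared.

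Weighted to the members' levels, those flanks had 3.29 and 2.99 in the wild type and 3.42, 3.82 and 3.85 in the knockout, a 1.18-fold ratio like that of the far part. The log2 ratio of far part to these flanks was -0.020 and -0.015 in the wild type and -0.018, -0.011 and -0.0042 in the knockout. The libraries overlapped, and the difference of 0.0067 was small (exact permutation p = 0.3). A difference between knockout and wild type that was particular to the far part was not detectable in these averages. The averages pool groups in which far part and flanks differed in either direction. In the lowest group the ratio was 0.896 for far parts and 1.05 for flanks, and in group 8 it was 1.32 and 1.16. These gaps within groups were not tested.

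Window by window, limma was fitted to log2(relative signal + 0.1) over all 36447 distinct windows. For the far part, 0 of 1408 members passed a Benjamini-Hochberg adjusted p of 0.05 in limma, and 0% of all windows did. At an unadjusted p under 0.05, limma gave 9.09% of members, against 5.55% of all windows. In that count 6.89% of members were higher in the knockout and 2.20% lower, against 1.62% and 3.92% of all windows. With no scaling, 2.91% of members were higher and 2.91% lower, against 360 and 1717 of the 36447 windows. With the replicate number as a block, 4.76% of members had an unadjusted p under 0.05 in limma, against 1209 of the 36447 windows. The rule enters into the count: the far part exceeded flanks and trough in both genotype means in 848 members (60.2%), in the knockout alone in 314 (22.3%) and in the wild type alone in 233 (16.5%). Windows of the latter kinds entered through the group in which they were high. Of the members at an unadjusted p under 0.05 in limma, 61 higher and 1 lower entered through the knockout alone, 2 higher and 25 lower through the wild type alone, and 33 higher and 5 lower met the condition in both. The median log2 difference of members was 0.14, against -0.43 over all windows tested; with no scaling the medians were -0.02 and -0.41, and with quantile normalization 0.06 and -0.01. Among all windows with M of at least 1, the median was -0.0027.

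The far parts of the 3 knockout libraries lay all above or all below the 2 wild-type libraries in 353 members (25.1%), against 21.8% of all windows. Of all members, 230 (16.3%) were higher and 8.74% lower in the knockout, against 6.48% and 15.3% of all windows, and against 10.96% and 10.3% of the other windows. The share without overlap was thus near the background, and 99 of the higher ones had entered through the knockout alone and 66 of the lower ones through the wild type alone.

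For the whole window, limma called 0 members (0% of all windows). At an unadjusted p under 0.05 it gave 204 (14.5%), against 11.2% of all windows, and with no scaling 49 (3.48%), against 2442 of the 36447. For the core it called 0 members (0% of all windows) and gave 78 unadjusted (5.54%, against 7.41%). For the difference of far part and core it called 0 (0% of all windows) and gave 34 unadjusted (2.41%, against 4.88%). The median log2 difference of that contrast was 0.12 in members and -0.16 over all windows, and under quantile normalization it was -0.14 and 0.02.

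Calls appeared when fewer low windows were tested. Without the 25% of windows of lowest signal, limma called the whole window in 12 members (0.852%, against 0.637%) and the far part in 3 (0.213%, against 0.0256%). With limma fitted only to the 10966 windows of M at or above 1, the far part of 6 members passed an adjusted p of 0.05 (0.426%, against 0.109% of these windows), all higher in the knockout, while quantile normalization also gave 6 members (against 0.1%) but 3 higher and 3 lower. Of the 6, 5 had the far part above flanks and trough in the knockout alone, so their direction is in part set by the choice of windows. Without knockout replicate 2 or knockout replicate 3, no far part was called (0 of these windows). Without knockout replicate 1 there were 3 (against 4 of these windows), of which 2 were lower in the knockout. Leaving out wild-type replicate 1 or 3 leaves 1 wild-type library. The median log2 difference of the members' far parts was then 0.17 and 0.04. The whole window passed in 25 members (1.78%, against 2.64%), of which 24 were higher (against 2.52%). That count was 5 without wild-type replicate 1 (65 of the 10966 windows), 0 without wild-type replicate 3 or knockout replicate 2 (0 of these windows), and 3, each lower in the knockout, under quantile normalization (against 0.492%). With the replicate number as a block, limma called 3 whole windows (against 0.593%), 0 far parts (against 0%) and 1 contrast of far part and core (against 0.0182%) among members. Without the block, no core and no contrast of far part and core was called in members, against 0.109% and 0% of these windows; over all windows, quantile normalization gave 1 core (against 0.0357%).

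Among the called far parts, that of row 7694 was 0.923 and 0.957 in wild-type replicates 1 and 3, and 5.85, 6.03 and 9.54 in the knockout (replicates 1, 2 and 3). All 3 knockout libraries lay far above the wild-type ones, and the log2 difference was 2.76 with an SE of 0.48 (adjusted p from limma = 0.609 over all windows and 0.0214 over windows of M at or above 1). Its core held 2.14 and 1.71 in the wild type and 0.26, 0.314 and 1.47 in the knockout, the opposite order. In the wild type its far part did not exceed flanks and trough, so the window met the rule through the knockout and its difference is in part set by the choice. A TSS 1080 bp away shared its far part.

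Row 621 had far levels of 1.06 and 1.25 in the wild type and 7.58, 7.27 and 6.25 in the knockout (log2 difference 2.51; limma adjusted p = 0.609 and 0.0332). Row 6419 had 0.969 and 0.167 in the wild type and 5.35, 3.64 and 6.62 in the knockout (3.27; 0.609 and 0.0214, limma), with a matched TSS at 790 bp. Row 5686 had 0.552 and 1.15 in the wild type and 3.21, 7.03 and 10.4 in the knockout (2.80; 0.609 and 0.0214, limma). These 3 windows too met the rule through the knockout alone, so their differences are in part set by the choice of windows. The genotypes overlapped in their cores. The strongest bin of rows 621 and 5686 lay at 235 and 425 bp, not in the far part. The other called far parts were in rows 21465 and 30383. Row 21465 had 4.45 and 1.97 in the wild type and 13.2, 17.8 and 14.6 in the knockout (limma adjusted p = 0.609 and 0.028). Its whole window was also called. Row 30383 had 0.138 and 3.09 in the wild type and 6.07, 4.23 and 6.49 in the knockout (limma adjusted p = 0.812 and 0.0472). Its wild-type libraries thus lay far apart.

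No member's far part was called lower in the knockout over all windows or, with scaling by the mean and all 5 libraries, over windows of M at or above 1. The 4 lower ones with the smallest p had the following values. Row 6490 had 5.14 and 8.09 in the wild type and 0.921, 0.712 and 0.98 in the knockout (log2 difference -2.77; limma adjusted p = 0.609, and 0.0864 over windows of M at or above 1). Row 36677 had 2.86 and 5.09 in the wild type and 0.254, 0.519 and 0.345 in the knockout. In both, the 3 knockout libraries lay far below the wild-type ones, without passing the test. Row 14889 had 4.72 and 3.46 in the wild type and 0.333, 0.599 and 0.734 in the knockout. Row 9807 had 5.38 and 4.51 in the wild type and 1.15, 1.37 and 1.39 in the knockout. The far part exceeded flanks and trough in both genotypes in row 9807, and in the other 3 rows in the wild type alone.

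The 6 strongest far parts had differences of knockout and wild type of 0.32 to 0.92 on the log2 scale, and none of these far parts passed limma in either fit. The highest far part of a member, at 20.1 M, held 15.1 and 13.5 in the wild type and 20.5, 31.7 and 25.3 in the knockout, and no other window shared it. Row 15414 held 15.8 and 18.9 in the wild type and 17.8, 23.8 and 23.7 in the knockout, with a matched TSS at 640 bp. Row 12540 held 18.9 and 12.5 against 23.9, 19.3 and 15.3, with a matched TSS at 680 bp. Genotypes overlapped in the latter pair of rows. Row 30628, described above, held 13.9 and 15.8 against 22.7, 20.9 and 29.1. Rows 34538 and 14412 had TSSs 100 bp apart and repeat each other in part. Their far levels were 14.6 and 8.29 against 14.3, 28.1 and 22.9 in the former, and 16.7 and 8.92 against 13.6, 23.3 and 19.5 in the latter. Their whole windows were both among the 25 called over windows of M at or above 1 (limma adjusted p = 0.00809 and 0.0123). Both were higher in the knockout.

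Some members had a near-empty TSS beside a strong outer part. The 2 members with core M under 0.1 have ratios to values at or near 0: row 18532 had a far part of 1.11 M with flanks and trough at 0, and row 935 had 5.93 M with flanks of 0.0145. Among members with core M of at least 0.1, the 4 largest ratios of the far part to the larger of flanks and trough were as follows. Row 30296 had a far part of 9.80 M, flanks of 0.266 and a trough of 0.0317, a 36.9-fold ratio, and a matched TSS 650 bp away with flanks of 9.68. Its far part was 14.5 and 9.03 in the wild type and 10.7, 8.78 and 3.98 in the knockout. Row 4419 had a 31.6-fold ratio and a matched TSS at 1020 bp, and row 36689 a 23.8-fold ratio and a matched TSS at 820 bp with flanks of 12.4. Row 12105, with a 32.8-fold ratio, had no match. In 3 of these 4 windows the far signal was thus also held by the window of another annotated TSS.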

How the data were processed

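Per the file names, the authors deposited for each library a NucleoATAC nucleosome signal matrix of 37310 TSS windows by 200 bins of 10 bp. Bowtie2, MACS2 and mm9 stand in the submitters' processing notes. For NucleoATAC settings, scaling between libraries and the TSS list, nothing is given in the sources used here. Signal is no read count, so the depth is unknown. Rows without signal in any library (818) and rows that repeat another (45) were left out of the tests.

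Each library was divided by its mean. Windows were compared in limma 3.58.1 (R 4.3.3) on log2(value + 0.1), with a trend and Benjamini-Hochberg adjustment over all windows tested. This scale understates changes at low values. Profiles were compared by exact two-sided permutation over 10 splits, with numpy 2.4.6 and pandas 2.3.3 (Python 3.11.15). The limma step was tested on simulated data, in which most of the changes put in were missed. A lack of calls thus does not show that nothing changed.

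Alternatives were pseudocount, scaling, filters, the thresholds of the rule, a replicate block and leaving out each library. Members and lists were chosen with earlier results of these data known. Windows named are the 6 highest far parts, the 4 largest ratios of far part to the larger of flanks and trough among members with core M of at least 0.1, the 4 higher and 4 lower far parts of smallest p, 3 on each side of each threshold, and 4 overlapping pairs. The other far parts called over windows of M at or above 1 are named too.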

Additional observations from a re-analysis of the deposited data

How the results depend on the processing

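The number of members was 7014 at M of at least 0.5, 550 at M of at least 2, and 803 when the far part had to exceed flanks and trough 1.5-fold. The share of members whose far part was found in another window was 29.1% at a correlation of at least 0.99. The core difference reversed to -0.00123 without scaling. The difference in the position of the strongest bin on the far side reversed from -11.7 to 0.191 bp as a mean over members. With libraries left out in turn, the difference in the depth of the dip ran from -0.909 to 0.673. It was -0.196 with the replicate block. The far-level difference ran from 0.428 to 0.714 and the core difference from 0.0990 to 0.171 with libraries left out.

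Without the 25% of windows of lowest signal, limma called 12 members for the whole window (0.852%, against 0.637% of the windows tested). For the far part it called 3 (0.213%, against 0.0256%). Over windows of M at or above 1 it called 25 (1.78%, against 2.64%) and 6 (0.426%, against 0.109%). There, leaving out libraries gave 0 to 33 for the whole window (0 to 356 of 10966 windows) and 0 to 3 for the far part (0 to 4 of these windows), and quantile normalization gave 3 for the whole window. Over all windows, quantile normalization gave 1 for the core, and leaving out libraries gave 0 to 2 for the far part, with 1031 of all 36447 windows called without wild-type replicate 1 (1026 lower in the knockout) and 831 without wild-type replicate 3 (827 lower).

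For replicates 1 and 3, deviations from the genotype mean correlated across the genotypes at r of -0.018 and -0.0074 over all windows. The deviations of the 2 wild-type libraries are exact opposites, so these values cannot decide if the numbers pair the libraries. With the replicate block, limma called 0 members over all windows for each measure. Over windows of M at or above 1 the block gave 3 for the whole window (against 0.593% of these windows) and 0 for the far part (against 0%). It gave 1 for the difference of far part and core (against 0.0182%).

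The unknown depth, 2 wild-type libraries and overlapping windows limit all of this.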
